A study of Mus musculus with 15 samples.

Results

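The 2 death-domain substitutions of MALT1, V87R and L88D, were compared with the wild-type protein in the mouse breast cancer line E0771. The 6 libraries of Malt1_V87R (3) and Malt1_L88D (3) were set together against the 3 libraries of Malt1_WT, which makes 9 of the 15 libraries of the series. The pooled value is the mean of the 2 mutants' group means minus the wild-type mean on the log2 scale, and each mutant's own value stands beside it. Membership followed the construct names in the labels, and every gene that passed a filter on low counts was tested, 14571 of 55571 genes in the table.

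All groups are E0771 cells that carry their endogenous Malt1 and an introduced vector: empty in the vector control (3 libraries), or encoding wild-type Malt1, Malt1 V87R or Malt1 L88D. A further construct, Malt1_PD (3 libraries), entered the fit only to estimate the spread. Per the title of the series, the cells were grown without T cells. The labels do not say which promoter drives the constructs, whether each is in a pool of cells or 1 clone, or whether replicates are separate cultures. A difference between cell lines therefore cannot be told apart from an effect of the construct, and the p-values measure only the spread between these libraries.

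MALT1 combines a scaffold with a caspase-like protease. Through its N-terminal death domain it binds BCL10 in filaments that CARD proteins nucleate. The assembled complex recruits TRAF6 and the IKK kinases upstream of NF-kB, and the protease domain cleaves regulators such as A20 (Tnfaip3), RelB and the mRNA-degrading proteins Regnase-1 and Roquin. Tumour cells with active NF-kB express cytokines and chemokines that recruit myeloid cells and lymphocytes.

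Library totals ran from 15471746 to 21458457 counts over the 15 libraries. Levels are given as CPM, the count of a gene relative to a library total scaled by its TMM factor (a correction for RNA composition), and ± values of CPM are SD over n = 3 libraries. Of the markers expected in mammary tumour cells, Krt8 (86.3 to 97.3 CPM) and Epcam (5.68 to 7.91 CPM) were present in all 9 libraries, whereas Krt18, Krt19, Krt5 and Krt14 were all under 0.5 CPM. The T cell gene Cd3e had at most 2 counts in a library, and the leukocyte gene Ptprc at most 5. In L88D replicates 2 and 3 a group of macrophage-type genes stood apart. For several gene lists the calls against the wild type are given with and without these libraries. List counts against the vector are given with all libraries only.

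Malt1 itself was read first as a check of the labels. It is a protein-coding gene, ENSMUSG00000032688.9, on the plus strand of GRCm38 chromosome 18 from 65430938 to 65479067. Its level was 26.4, 30.2 and 27.8 CPM in the vector libraries, 208, 193 and 206 CPM in the wild type, 279, 279 and 281 CPM in V87R and 258, 245 and 251 CPM in L88D. All 6 mutant libraries lay above all 3 wild-type libraries. The mutants together had 1.31-fold the Malt1 mRNA of the wild type (log2 fold change 0.39 ± 0.04 SE, adjusted p = 3.78e-10), V87R by 0.47 and L88D by 0.32 on the log2 scale. The count does not read the substitutions, and it does not separate construct from endogenous transcripts. The effect of the higher Malt1 level on other genes was not tested.

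The comparison asked which genes differ between cells with the death-domain mutants and cells with the wild-type protein. The mutants had far lower mRNA of inflammatory cytokines and chemokines than the wild type, higher mRNA of mitotic, DNA replication, cholesterol synthesis, and matrix and mesenchymal genes, and antiviral interferon-stimulated genes whose median was near that of the wild type. Of the genes tested, 7499 (51.5%) were called at an adjusted p under 0.05 (edgeR quasi-likelihood, two-sided, Benjamini-Hochberg), 3802 higher (26.1%) and 3697 lower (25.4%). At least 2-fold, 422 were higher (2.9%) and 780 lower (5.35%). V87R alone gave 7036 calls (48.3%), of which 826 were lower by at least 2-fold (5.67% of genes tested). L88D alone gave 6568 calls (45.1%), with 736 lower by at least 2-fold (5.05%). The 6 mutant libraries lay wholly above the 3 wild-type libraries for 3497 genes (24%) and wholly below for 3391 (23.3%). With about 1 in 2 genes called, counts within a gene list are read against these shares and against the median over all genes tested, which was 0.02 on the log2 scale.

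Among genes of at least 5 CPM called in both mutants, with no overlap between libraries, 7 of the 10 largest falls were cytokine or chemokine genes: Il1b, Ccl3, Il1a, Cxcl2, Tnf, Csf3 and Il12b. The other three were Ceacam15, a member of the carcinoembryonic antigen family, Fgf23, a hormone of phosphate balance, and Mmp10, a matrix metalloprotease. Il1b, which encodes the pyrogenic cytokine interleukin-1 beta, was at 16.6, 15.2 and 13.2 CPM in the wild type, 0.204, 0.279 and 0.251 CPM in V87R and 0.252, 0.19 and 0.237 CPM in L88D. The vector libraries had 0.186, 0.184 and 0.245 CPM, so the mutant and vector ranges overlapped while the wild type stood far above both. The fall was 5.96 ± 0.16 (SE) on the log2 scale, 62.3-fold (adjusted p = 2.1e-22). It rests on 27 counts over the 6 mutant libraries against 725 over the 3 wild-type libraries.

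Ccl3, a chemokine that attracts macrophages, was at 379, 350 and 342 CPM in the wild type, 7.35, 6.7 and 6.47 CPM in V87R and 6.94, 4.67 and 6.63 CPM in L88D. Both mutants were below every wild-type library and above every vector library (2.7, 3.32 and 2.89 CPM). The fall was 55.9-fold (log2 5.80 ± 0.07 SE, adjusted p = 5.98e-22). Csf3, the granulocyte colony-stimulating factor, showed the same order, with 423, 392 and 379 CPM in the wild type, 15.8, 16.2 and 18.6 CPM in V87R, 15.4, 17.1 and 18 CPM in L88D, and 6.33 to 7.5 CPM with the vector. It fell 23.6-fold against the wild type, and its level in the mutants was 2.38-fold that of the vector (adjusted p = 1.29e-07).

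The largest rise was that of Ccn5, a matricellular protein of the CCN family, with 2, 2 and 1 counts in the wild-type libraries against 118 to 160 counts in the mutant libraries. Its level was 7.3 ± 0.764 CPM in V87R and 7.6 ± 0.862 CPM in L88D, below the 13 ± 1.47 CPM of the vector. The fitted log2 fold change of 6.07 has a 95% interval of 5.48 to 6.67, since the wild-type side holds 5 counts in all. The other 9 were Akr1cl, Gprc5b, Rgcc, Col8a1, Idh1, Angpt1, Fam83d, Ly6c1 and Cenpf, which rose by 2.11 to 3.03 on the log2 scale. Idh1, the cytosolic isocitrate dehydrogenase, went from 12.6, 12.6 and 11.2 CPM in the wild type to 64.9, 61.1 and 60.9 CPM in V87R and 64.6, 61.5 and 64.2 CPM in L88D, close to the 67.8 to 70.2 CPM of the vector.

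**Figure D1:**
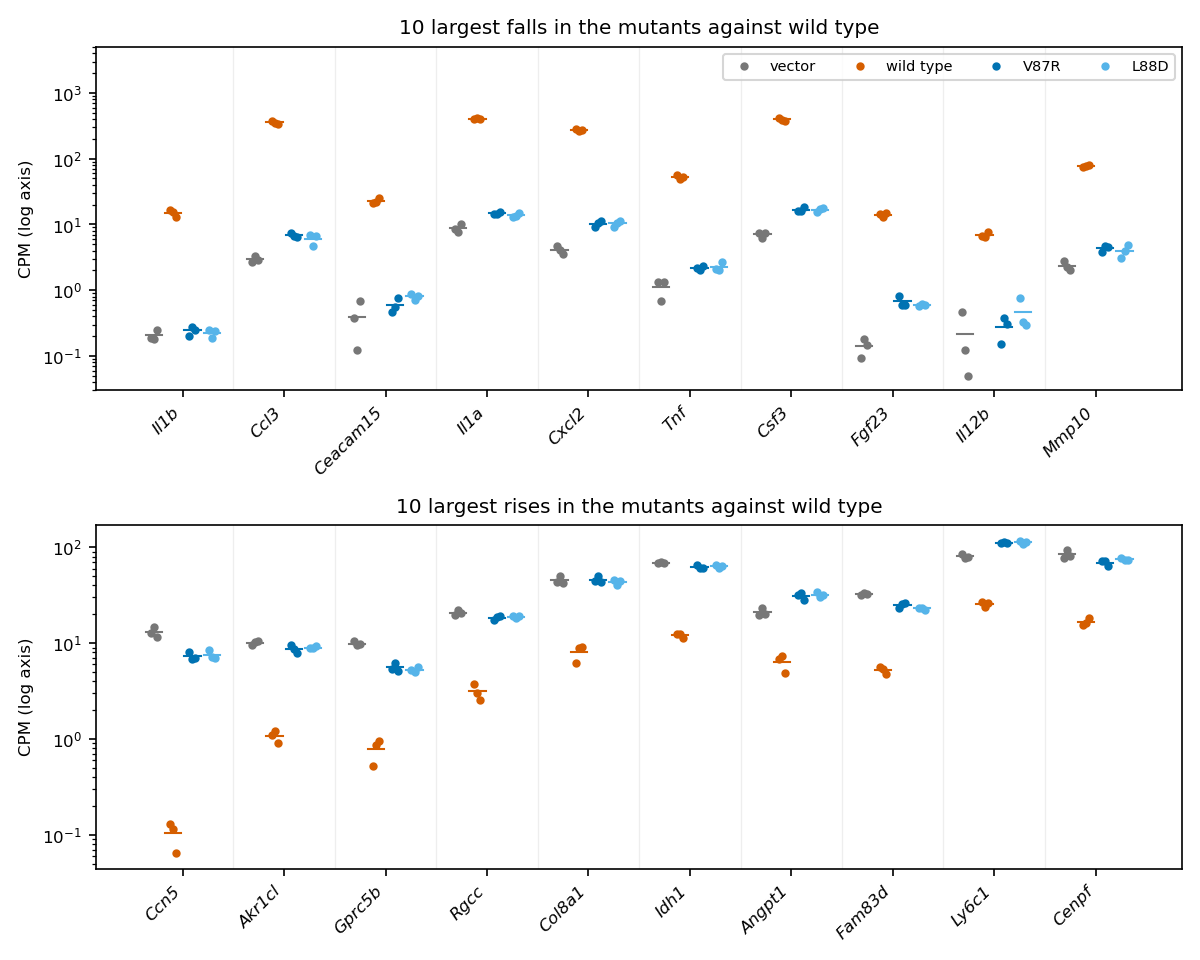
CPM (log axis) in each library of the vector, wild type, V87R and L88D for the 10 genes with the largest fall (top) and the 10 with the largest rise (bottom) in the mutants; points are libraries and bars group means. The naming rule required that mutant and wild-type libraries not overlap. For every gene shown the V87R and L88D libraries lie together, as for Il1a, at 12.8 to 15.7 CPM against 395 to 414 CPM in the wild type.

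Genes of the MALT1 complex and the IKK pathway were described next. Of the 18 tested, 4 rose (2 without wild-type replicate 3) and 8 fell, with a median log2 fold change of -0.13. Bcl10, the partner of the death domain, fell from 142, 127 and 144 CPM in the wild type to 86.9, 88.2 and 84.5 CPM in V87R and 86.4, 85.1 and 83.5 CPM in L88D (0.68 ± 0.04 SE on the log2 scale, adjusted p = 1.18e-14). The mutant libraries overlapped the vector range of 79.6 to 85.9 CPM and no wild-type library. Traf6, the ubiquitin ligase that the complex recruits, fell by 0.80. Among genes that encode known protease substrates, 4 of 17 rose and 8 fell. Tnfaip3, Relb and Zc3h12a, which encodes Regnase-1, fell by 1.96, 0.97 and 0.77.

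NF-kB subunits and inhibitors were mostly lower, with 11 of 14 genes down, 2 up (Bcl3 and Cyld; 1 without wild-type replicate 1 or without L88D replicates 2 and 3) and a median of -0.95. Nfkbia, the inhibitor IkB-alpha, was at 600, 563 and 605 CPM in the wild type, 248, 245 and 245 CPM in V87R and 225, 220 and 238 CPM in L88D. The vector libraries, at 234 to 242 CPM, lay within the mutant range of 220 to 248 CPM. Nfkbia fell 1.32 ± 0.03 (SE) and Nfkb2, the p100 precursor, fell 1.28 ± 0.04 (SE) on the log2 scale. Of 34 other NF-kB target genes, 31 fell and 1 rose (median -1.14). Against the vector, 26 of these 34 were higher in the mutants and none lower, with a median of 0.45. Over all genes tested 18.8% were called against the vector, 9.74% higher and 9.02% lower, and 1.43% were higher by at least 2-fold. The 1419 higher and 1314 lower calls became 1298 and 1031 without L88D replicate 3, and 1272 and 948 without V87R replicate 2. Ptges, a prostaglandin E synthase, fell from 1380 to 1430 CPM to 414 to 450 CPM, above the 306 to 324 CPM of the vector.

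Of the mRNAs that Regnase-1 and Roquin are known to degrade, 18 of 19 fell and none rose, with a median of -2.61. Tnfrsf4 was not called. The list shares members with the cytokine and chemokine lists, so its count is not separate from theirs. The neutrophil-attracting chemokines Cxcl1, Cxcl2 and Cxcl3 fell, 3 of 5 tested, and Ppbp and Cxcl5 were not called. Cxcl1 was at 1810, 1690 and 1760 CPM in the wild type, 298, 293 and 309 CPM in V87R, 268, 275 and 286 CPM in L88D and 194 to 208 CPM with the vector. No group overlapped another, with the mutants between the wild type and the vector and nearer the vector (fall of 2.61 ± 0.03 SE, adjusted p = 1.64e-29).

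Stretches of the Cxcl1 and Cxcl2 promoters are printed because both genes fell strongly and hold the same kappa-B letters. RefSeq promoters on GRCm38.p6, from 250 bases before to 50 after each gene's start, were available for 10076 of the genes tested. Matches to kappa-B, the motif that NF-kB binds, were searched on both strands and were found in 16.54% of the 532 promoters of genes lower by at least 2-fold, in 37.5% of 24 NF-kB targets and in 43.75% of 16 Regnase-1 and Roquin targets, against 12.2% of all genes tested. Cxcl1 (chr5:90891149-90891209, plus strand, 96 to 36 bases before the start) and Cxcl2 (chr5:90903777-90903837, plus strand, 122 to 62 bases before the start) are given 5′ to 3′, with kappa-B matches in capitals.
Cxcl1: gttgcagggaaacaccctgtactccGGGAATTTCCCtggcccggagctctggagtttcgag
Cxcl2: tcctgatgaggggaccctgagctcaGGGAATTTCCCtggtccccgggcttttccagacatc
A match describes these letters only and is not evidence of binding. Il1a, Ccl3, Csf3 and Tnf, also among the largest falls, were looked up in the same way and gave no kappa-B stretch before the start. Whether a match or the promoter itself was lacking was not recorded.

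Among interleukins and Tnf, 11 of 14 fell and Il7 alone rose (median -2.89). Il6 fell from 293, 297 and 283 CPM to 40.2, 42.9 and 35.5 CPM in V87R and 38.5, 33.9 and 36.2 CPM in L88D, above the 16.6 to 17.7 CPM of the vector. Il1rn, the interleukin-1 receptor antagonist, fell by 2.38. Il7, a lymphocyte growth factor, rose from 4.76, 5.24 and 5.66 CPM to 8.33 to 10.5 CPM in the mutants, above all vector libraries as well (log2 0.81 ± 0.11 SE, adjusted p = 6.99e-07). All 3 colony-stimulating factors fell. Csf1, the macrophage growth factor, went from 630, 598 and 614 CPM to 201, 202 and 199 CPM in V87R and 197, 193 and 195 CPM in L88D.

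Of 11 CC chemokines tested, 7 fell and 2 rose. Ccl5, which attracts T cells, went from 42.9, 39.9 and 44.2 CPM to 9.65 to 10.8 CPM, a range that met the vector's 8.73 to 9.85 CPM. The risers were Ccl8 and Ccl11. Ccl8 went from 3.02 to 4.09 CPM in the wild type to 4.95 to 7.88 CPM in the mutants. Ccl11, known as eotaxin, rests on 2 counts over the 3 wild-type libraries against 17 to 38 counts in each mutant library, with a fitted log2 fold change of 4.87 and a 95% interval of 3.71 to 6.03.

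The 3 ligands of CXCR3, a chemokine receptor of T cells, are induced by interferon as well as by NF-kB. All 3 fell but stayed well above the vector. Cxcl9 was at 166, 155 and 171 CPM in the wild type, 37.9, 36.8 and 34.9 CPM in V87R, 31.2, 28.1 and 34.3 CPM in L88D and 0.651, 0.184 and 0.637 CPM with the vector. Each mutant library lay between the wild type and the vector (fall of 2.28 ± 0.06 SE against the wild type, 6.01 above the vector). Cxcl10 was at 234, 189 and 230 CPM in the wild type and 118 to 135 CPM in the mutants, a fall of 0.77. Cxcl11, annotated as a polymorphic pseudogene in mouse, fell by 2.60 from 4.09 to 5.22 CPM.

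The genes of the interferon response differed from the NF-kB targets. Of 41 antiviral interferon-stimulated genes, 16 rose and 14 fell against the wild type, with a median of 0.01, near the median of all genes. Against the vector 35 of the 41 were higher in the mutants and none lower (median 0.54). Samhd1, a dNTP hydrolase that restricts viruses, rose from 249, 231 and 247 CPM to 399, 377 and 364 CPM in V87R and 378, 373 and 375 CPM in L88D, with 175 to 183 CPM in the vector. Rsad2, known as viperin, fell by 0.94 to a mutant range of 195 to 230 CPM, above the 134 to 150 CPM of the vector.

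Of 22 interferon regulatory factor, STAT and receptor genes, 4 rose and 9 fell (median -0.07). Stat2, a transcription factor of the type I interferon response, rose by 0.43. In contrast, the interferon-gamma receptor chain Ifngr2 fell by 1.07 and the kinase Jak2 by 0.98. Irf1, a transcription factor induced by interferon and NF-kB, was at 434, 398 and 436 CPM in the wild type, 343 to 368 CPM in the mutants and 55.6 to 58.7 CPM with the vector, a fall of 0.25 ± 0.03 (SE).

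All 16 guanylate-binding and immunity-related GTPase genes tested, which act against intracellular pathogens, were higher in the mutants than in the vector (median 2.82). Against the wild type 7 rose and 4 fell (median 0.12). Iigp1 went from 96.9, 99 and 109 CPM in the wild type to 200, 195 and 187 CPM in V87R and 198, 180 and 191 CPM in L88D, with 9.1 to 10.2 CPM in the vector. Igtp, Irgm2 and Gbp10 rose as well, by 0.55, 0.49 and 0.86, whereas Gbp5 and Gbp2 fell by 0.65 and 0.33. Members of this family are near-identical in part and the handling of shared reads is not given in the sources used here, so the split between close copies is uncertain.

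Stretches of 4 interferon-pathway promoters are shown because their genes lay well above the vector in the mutants. The gamma-activated sequence TTCNNNGAA was in 66.67% and the interferon-stimulated response element, likewise searched on both strands, in 100% of the 9 GTPase promoters available, against 8.21% and 3.8% of all genes tested. Igtp (chr11:58199486-58199555, plus strand) and Irgm2 (chr11:58214877-58214947, plus strand) are near-identical here and carry both. Irf1 (chr11:53769899-53770013, plus strand) carries a gamma-activated sequence and a kappa-B match. Cxcl10 (chr5:92348958-92349127, minus strand) carries a response element and kappa-B matches. Capitals mark the matches, 5′ to 3′.
Igtp: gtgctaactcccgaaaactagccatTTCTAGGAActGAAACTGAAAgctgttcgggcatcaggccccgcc
Irgm2: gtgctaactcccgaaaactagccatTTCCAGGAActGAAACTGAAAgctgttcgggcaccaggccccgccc
Irf1: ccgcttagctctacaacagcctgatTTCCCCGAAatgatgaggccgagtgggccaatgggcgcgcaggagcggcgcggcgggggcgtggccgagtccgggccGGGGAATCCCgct
Cxcl10: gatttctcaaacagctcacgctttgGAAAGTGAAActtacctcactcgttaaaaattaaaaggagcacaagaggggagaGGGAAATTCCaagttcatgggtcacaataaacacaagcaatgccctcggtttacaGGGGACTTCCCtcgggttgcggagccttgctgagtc
The matches are descriptions of the letters, and the binding of any factor was not measured.

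MHC class I and peptide-loading genes split, with 6 of 21 higher and 9 lower against the wild type (median -0.08), while 18 were higher than in the vector and none lower (median 0.75). The immunoproteasome subunits Psmb8 and Psmb9 rose by 0.31 and 0.32, and Nlrc5, the activator of class I genes, by 0.20. B2m, the class I light chain, fell by 0.22, and the chaperone Calr by 0.70. Of 16 checkpoint and T or NK cell ligands, 5 rose and 6 fell. The 5 became 3 with DESeq2 and without V87R replicate 3, L88D replicate 2 or wild-type replicate 2 or 3, and 2 without wild-type replicate 1 or without L88D replicates 2 and 3. Cd274, which encodes PD-L1, was at 171, 174 and 180 CPM in the wild type, 207, 202 and 190 CPM in V87R, 179, 185 and 183 CPM in L88D and 4.83 to 5.9 CPM with the vector. The mutant and wild-type ranges overlapped, and the pooled difference of 0.12 ± 0.04 (SE, adjusted p = 0.0108) was called in V87R (adjusted p = 0.000987) and not in L88D (adjusted p = 0.333). Pvr, a ligand of TIGIT and DNAM-1, fell by 1.78 to 160 to 178 CPM in the mutants, near the vector's 132 to 154 CPM.

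**Figure D2:**
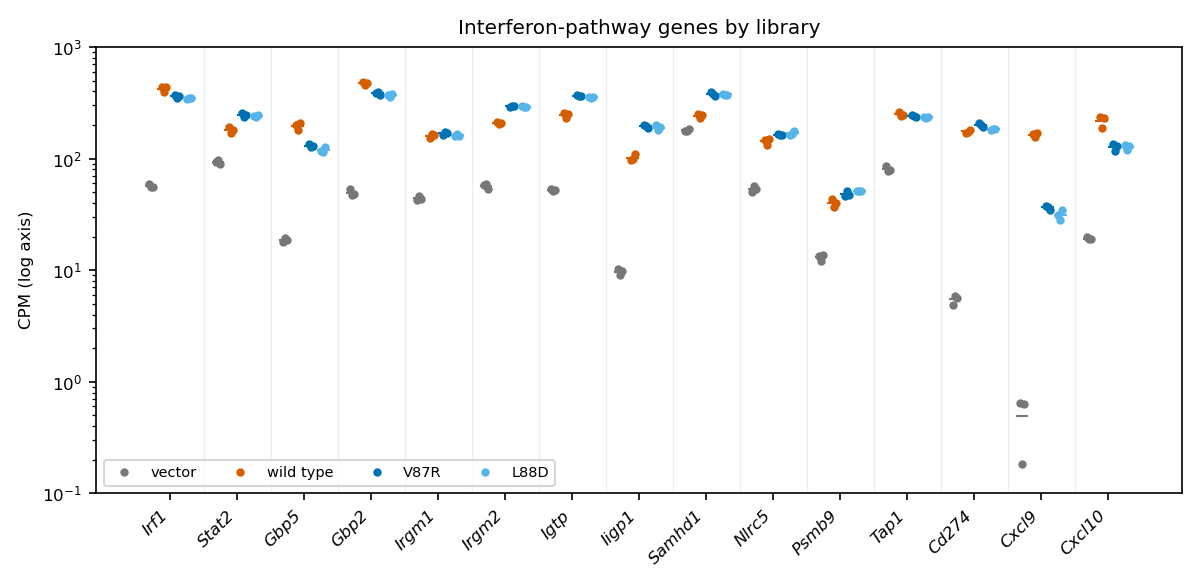
CPM (log axis) in each library for 15 interferon-pathway genes in the vector, wild type, V87R and L88D; points are libraries and bars group means. The mutant libraries of Stat2, Igtp, Irgm2, Iigp1 and Samhd1 lie above the wild type, those of Gbp2, Gbp5, Cxcl9 and Cxcl10 below it, and those of all 15 genes above the vector.

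Proliferation genes showed the opposite direction to the cytokines. All 35 mitosis and G2/M genes tested rose, with a median of 1.45, and 36 of 37 DNA replication and S-phase genes rose, with a median of 0.62. Against the vector 30 of the 35 mitotic genes were lower in the mutants and 1 higher (median -0.28). Top2a, the topoisomerase of dividing cells, rose from 494, 496 and 490 CPM to 1310, 1310 and 1260 CPM in V87R and 1280, 1220 and 1260 CPM in L88D (1.37 ± 0.03 SE on the log2 scale, adjusted p = 5.22e-24). Prc1 and Hmmr, which act on the mitotic spindle, rose by 1.76 and 1.91. Rrm2, Tk1 and Uhrf1, of nucleotide supply and DNA methylation, rose by 0.94, 1.30 and 0.86. In bulk RNA, more cells in a phase and more RNA per cell cannot be told apart. Of 14 replication-dependent histone genes, 6 rose and none fell. The 6 became 3 without L88D replicate 2, wild-type replicate 2, or L88D replicates 2 and 3 together. Hist1h3d and Hist1h2bb rest on levels under 2 CPM in the mutants, and Hist1h2bb lost its call without wild-type replicate 3 (adjusted p = 0.0532). Of 24 p53 target and cell-cycle inhibitor genes, 13 fell and 5 rose. Cdkn1a, the inhibitor p21, fell from 1080, 998 and 1050 CPM to 323 to 335 CPM in V87R and 329 to 362 CPM in L88D, and Cdkn2c rose by 1.33.

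Promoters of the mitotic genes are shown for the motifs known from genes of this phase. A CCAAT box (CCAAT, or ATTGG on the other strand) was in 79.31% and a cell cycle homology region (TTTGAA, or TTCAAA) in 72.41% of 29 mitotic promoters, against 43.01% and 14.67% of all genes tested. Part of the second share lies after the start, as the bases before the start alone gave 37.93%. Cdc20 (chr4:118437344-118437421, minus strand), an activator of the anaphase-promoting complex that rose by 1.71, and the second RefSeq start of Prc1 (chr7:80294389-80294475, plus strand) hold both, in capitals.
Cdc20: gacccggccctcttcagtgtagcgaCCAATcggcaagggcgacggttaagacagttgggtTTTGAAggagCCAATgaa
Prc1: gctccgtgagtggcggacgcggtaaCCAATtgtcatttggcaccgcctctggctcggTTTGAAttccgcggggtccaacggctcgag
Both stretches end at the base before the start.

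Metabolic and stress lists also moved. Of 25 cholesterol synthesis genes, 23 rose and none fell (median 0.73). Cyp51, a sterol demethylase, and Acat2, an acetyl-CoA acetyltransferase, rose by 1.18 and 1.39. Acat2 went from 13.9, 14.5 and 13.9 CPM in the wild type to 39.6, 37.6 and 36.9 CPM in V87R and 35.3, 34.1 and 38.5 CPM in L88D, overlapping the 38 to 43.2 CPM of the vector. Of 33 endoplasmic reticulum chaperone and stress genes, 32 fell and 1 rose, by 0.09 (median -0.74). The 1 became 0 with RLE or upper-quartile scaling, with DESeq2, and without V87R replicate 1, 2 or 3 or L88D replicate 1 or 2. Hspa5, the chaperone BiP, fell from 2870, 2800 and 3090 CPM to 1200, 1250 and 1260 CPM in V87R and 1130, 1160 and 1200 CPM in L88D, around the vector's 1150 to 1190 CPM. Of 21 NRF2 and antioxidant genes, 14 fell, led by the haem oxygenase Hmox1 (fall of 2.17), and 2 rose. The 2 became 0 without wild-type replicate 3, and 1 without V87R replicate 3, wild-type replicate 1 or 2, or L88D replicates 2 and 3.

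Of 27 glycolysis and hypoxia genes, 15 were lower and 8 higher, with falls of Adm (1.67), Ndrg1 (1.13) and Ddit4 (1.36). In arginine metabolism 9 of 15 fell and 3 rose. Nos2, the inducible nitric oxide synthase, was at 2420, 2270 and 2360 CPM in the wild type, 764, 757 and 783 CPM in V87R, 842, 864 and 903 CPM in L88D and 303 to 347 CPM with the vector. Its mutant libraries lay between the other groups, a fall of 1.52 ± 0.03 (SE) against the wild type. Smaller shifts were seen in nuclear respiratory chain genes (17 of 30 rose, 1 fell, median 0.17), cytosolic ribosomal protein genes (25 of 39 rose, none fell, median 0.14) and ribosome biogenesis genes (13 of 29 rose, 7 without wild-type replicate 3, and 2 fell, 1 without L88D replicates 2 and 3, median 0.06). Of 13 mitochondrially encoded genes 4 rose and 2 fell, near the shares over all genes, and 1 fell without L88D replicate 1 or wild-type replicate 1 or 3. The ribosomal differences reached at most 0.31 on the log2 scale, Rpl22 rose 1.20-fold, and the ribosomal count was 16 without wild-type replicate 2.

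Among immediate-early and AP-1 genes 23 of 25 fell and none rose (median -0.71), with Phlda1, Dusp5 and Maff down by 1.66, 1.45 and 0.92. Of 19 YAP/TEAD targets 11 fell and 3 rose, the last being Ccn5, Axl and Rbms3. Collagen, matrix and mesenchymal genes mostly rose, 24 of 32 with 4 lower (median 0.45). Sparc, a matrix glycoprotein, went from 236, 232 and 230 CPM to 545 to 570 CPM in the mutants, below the 596 to 612 CPM of the vector. Tnc, tenascin C, moved the other way, from 316, 322 and 329 CPM to 71.8 to 81.7 CPM. Of 16 matrix metalloproteases and inhibitors 9 fell and 2 rose, with Mmp3 and Mmp9 down by 2.62 and 2.37.

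**Figure D3:**
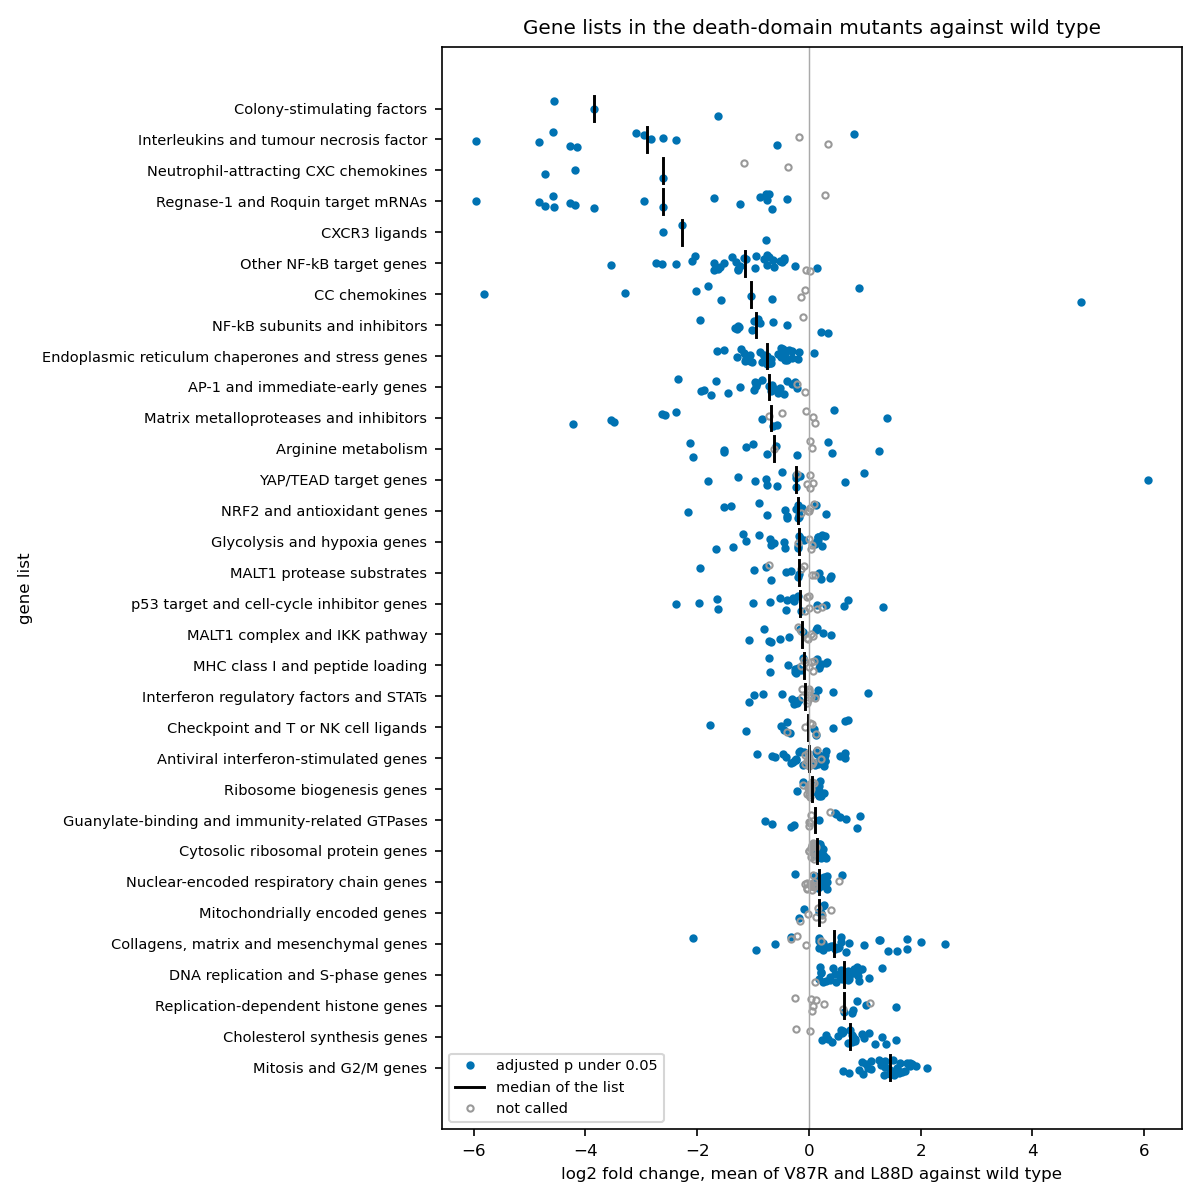
Log2 fold change of the mean of V87R and L88D against the wild type (horizontal axis) for each tested member of the gene lists (vertical axis), with filled points for genes at an adjusted p under 0.05, open points for genes not called, and a bar at the list median. Medians run from -3.84 for the colony-stimulating factors to 1.45 for the mitosis and G2/M genes, and those of the interferon lists lie near 0.

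A further set of genes lay outside both controls. All 6 mutant libraries were above all 6 vector and wild-type libraries for 272 genes (1.87%) and below them for 225 (1.54%). Under the naming rule the largest rises of this kind were Angpt1, Ly6c1, Apol6 and C4b. Apol6, an apolipoprotein L gene, was at 3.92, 2.99 and 3.41 CPM in the wild type and 3.95, 2.58 and 2.94 CPM with the vector, against 15.9, 12 and 12.5 CPM in V87R and 10.8, 13.6 and 12.5 CPM in L88D. It was 1.91 ± 0.14 (SE) above the wild type and 2.01 above the vector on the log2 scale. C4b, a complement component, was at 7.01 to 8.35 CPM in the wild type, 22.5, 23 and 23.3 CPM in V87R and 25.6, 25.7 and 28.2 CPM in L88D. The largest falls were Plk2, Rab15, Dusp1 and Rcan1. Dusp1, a phosphatase of MAP kinases, went from 107, 106 and 102 CPM in the wild type to 26.9 to 35.6 CPM in the mutants, under the vector's 41 to 45.4 CPM.

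Whether V87R and L88D differ from each other was tested directly, which removes the wild-type mean they share. No gene was called by edgeR (0%, smallest adjusted p = 0.421), by DESeq2 or by limma-voom, while 852 (5.85%), 639 and 899 genes had an unadjusted p under 0.05. In the 9 libraries alone edgeR called 14 genes, led by Nos2 (adjusted p = 0.00589) and Saa3 (0.0147), with no filter on low counts it called 5, and without L88D replicate 1 it called 2, Apoe and Csf1r. For 9885 of the 9890 genes of at least 5 CPM in either mutant (99.95%), the fitted difference was under 0.5 on the log2 scale. For the genes above the difference V87R minus L88D had 95% intervals of -0.05 to 0.26 (Il1a), -0.03 to 0.11 (Top2a) and 0.04 to 0.23 (Cd274). A p above the threshold does not show that the mutants act alike. On simulated data with levels from the wild-type means and 50 genes changed at each fold, the same test recovered 66% of genes changed 1.5-fold. It recovered 86% of those changed 2-fold and 96% of those changed 4-fold. That simulation made 154 calls, and the Benjamini-Hochberg threshold is stricter where few genes differ. These rates therefore do not give the power behind the 0 calls of the real comparison. Malt1 itself differed by 0.15 with an interval of 0.07 to 0.24 and an adjusted p of 0.664.

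**Figure D4:**
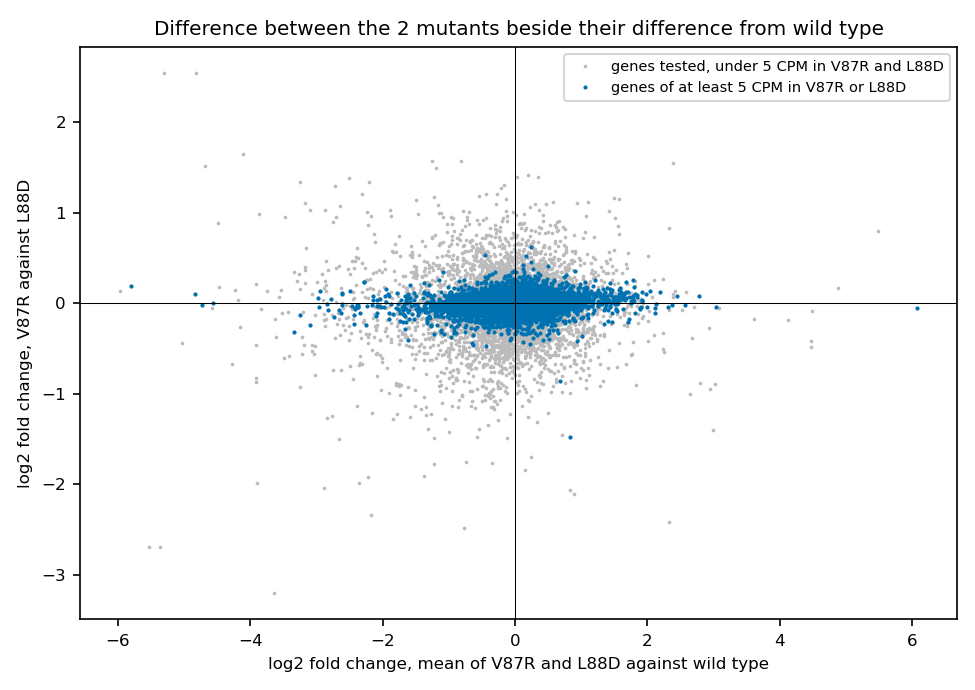
Log2 fold change of V87R against L88D (vertical axis) beside that of their mean against the wild type (horizontal axis) for each gene tested, in blue where V87R or L88D has at least 5 CPM. Blue points run from -5.80 to 6.07 across and from -1.48 (Lyz2) to 0.62 (Mir703) up, and the wide vertical scatter is in grey genes of few counts.

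Among the genes of lowest unadjusted p between the mutants was Csf1r, the macrophage growth factor receptor, and other macrophage-type genes were looked at beside it. Lyz2, the lysozyme of macrophages, was at 5.49, 19.6 and 16.2 CPM in L88D against 3.27, 5.54 and 6.22 CPM in V87R and 4.63, 6.91 and 2.38 CPM in the wild type. Apoe was at 7.07, 15.3 and 11.9 CPM in L88D and 4.8, 7.26 and 7.12 CPM in V87R. L88D replicates 2 and 3 were thus high and replicate 1 was not. The summed level of the 31 macrophage and dendritic cell markers was 98.7 to 100 CPM in the wild type, 58.4 to 62.7 CPM in V87R, 59.1, 94.3 and 83.9 CPM in L88D and 59.4 to 62 CPM in the vector. Of these 31 genes 16 were tested, 9 fell (Cd14, Cd68 and Cd74 by 1.49, 0.96 and 1.09) and 2 rose (Apoe and Fcer1g). The 2 became 4 without L88D replicate 1, and 0 without wild-type replicate 1 or 2 or without L88D replicates 2 and 3. Adgre1, which encodes the macrophage marker F4/80, was at 1.24, 1.04 and 1.41 CPM in the wild type, 0.0511, 0.0931 and 0.201 CPM in V87R and 0.0631, 0.81 and 0.887 CPM in L88D. Csf1r was at 1.44, 1.55 and 1.74 CPM in the wild type, 0.408, 0.605 and 0.502 CPM in V87R and 0.694, 2.71 and 1.6 CPM in L88D. Both were thus high in the wild type and in L88D replicates 2 and 3. Tyrobp was at 0, 0.333 and 0.296 CPM in L88D and 0 to 0.1 CPM in V87R and the wild type. Ctss was at 0.189, 1.95 and 1.6 CPM in L88D, 0 to 0.465 CPM in V87R and 0.0643 to 0.522 CPM in the wild type. C1qb, C1qc and Laptm5 were also highest in L88D replicates 2 and 3, and C1qb and C1qc were at most 0.0653 CPM in the wild type. Itgam was not raised in these L88D libraries, and Ptprc was at 0 to 0.296 CPM in all 9 libraries. The part of such cells in the differences from the wild type was not tested. The pooled comparison called 7218 genes without L88D replicate 2, 7235 without L88D replicate 3 and 7257 without V87R replicate 2. Against the vector the 2733 calls became 2363, 2329 and 2220 in the same order, so a fall was also seen without a V87R library.

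**Figure D5:**
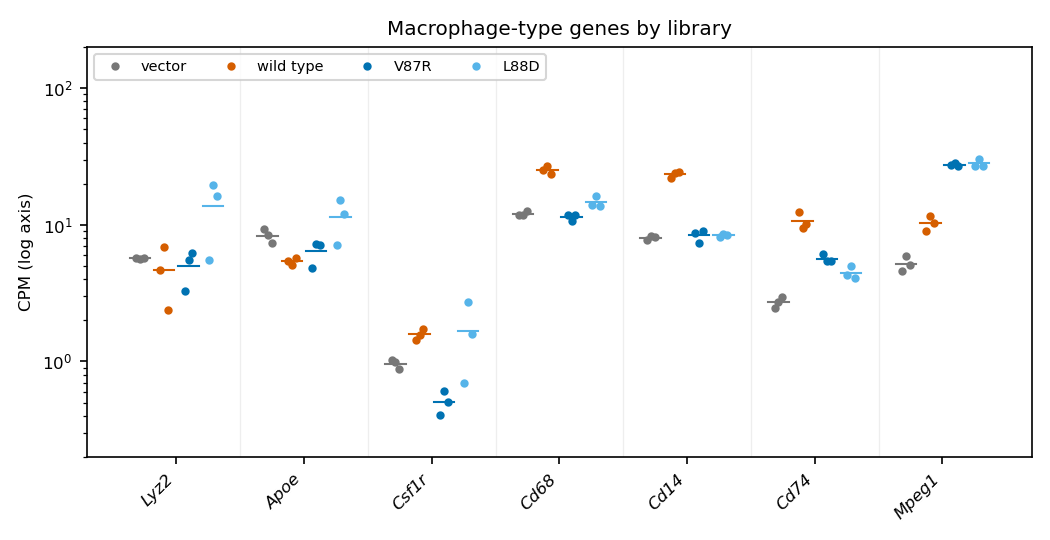
CPM (log axis) of 7 macrophage-type genes in each library of the vector, wild type, V87R and L88D; points are libraries and bars group means. For Lyz2, Apoe and Csf1r L88D replicates 2 and 3 lie above replicate 1, whereas for Cd14 all 6 mutant libraries lie at 7.4 to 8.98 CPM.

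Markers of other cell types were low or differed little in sum. The T, B and NK cell markers summed to 8.42 to 10.1 CPM in the wild type and 5.82 to 7.32 CPM in the mutants, and Lck fell by 0.48, a call that was lost without wild-type replicate 2 (adjusted p = 0.238), V87R replicate 2 (0.0625) or L88D replicate 3 (0.0582), with DESeq2 (0.0868), with no filter on low counts (0.0736) and without L88D replicates 2 and 3 (0.105). Fibroblast markers summed to 422 to 432 CPM in the wild type and 431 to 456 CPM in the mutants, with 6 of 9 tested higher and 2 lower, among them Acta2 (rise of 0.66), S100a4 (rise of 2.01) and Pdgfra (fall of 0.37). Endothelial markers summed to 136 to 149 CPM and 134 to 141 CPM, and 5 of 7 fell, Vwf by 0.91 and Esam and Flt1 from under 4 CPM. Plvap alone rose, a call lost with DESeq2 and without V87R replicate 2, wild-type replicate 2 or 3, or L88D replicates 2 and 3. Epithelial markers summed to 165 to 176 CPM and 151 to 164 CPM, with 3 of 8 lower (Erbb3, Ovol1 and Grhl2) and 2 higher (Epcam and Esr1), which became 1 with DESeq2 and without wild-type replicate 1 or 3.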

How the data were processed

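The authors deposited whole-number counts per gene symbol for each library. Per the submitters' processing notes, the tools included featureCounts 1.6.3, STAR 2.7.3a and Trim Galore 0.6.0, and the build was GRCm38.p6. No source used here gives the annotation release, the strand setting or how reads shared between genes were counted. The libraries were strand-specific and paired-end, from total RNA, per the labels. Gene positions were taken from GENCODE M21, which matched 55341 of 55571 symbols; 22982 genes were 0 in every library.

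Groups came from the column names. Columns named for a cysteine substitution were taken as Malt1_PD, the only construct without columns of its own name, and were used for the spread alone. In R 4.3.3 with edgeR 4.0.16, filterByExpr left 14571 genes, TMM factors were computed, and a robust quasi-likelihood model with 1 mean per group was fitted to all 15 libraries (common biological coefficient of variation 4.61%). Contrasts were two-sided, adjusted by Benjamini-Hochberg over all genes tested, with a threshold of 0.05. SE is the size of the log2 fold change divided by the square root of F, and intervals are at 95%. No 2 columns held identical values. RefSeq promoters on GRCm38.p6 were searched for motifs as a description, with no test.

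The members, gene lists and tests were chosen with earlier results of these data known. Named genes were Malt1; the 10 largest rises and falls among genes called in the pooled and both single contrasts, without overlap, of at least 5 CPM and with a named symbol; up to 3 called members of each list by adjusted p; and the 4 largest in each direction outside both controls. Others are named to fill a list's description and were chosen after their values were seen.

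On simulated data the pooled test recovered 74% of genes changed 1.5-fold, 80% of those changed 2-fold and 100% of those changed 4-fold, with 10 of 165 calls (6.1%) of unchanged genes; for V87R against L88D 5 of 154 calls (3.2%) were of unchanged genes. Alternatives were RLE and upper-quartile scaling, DESeq2 1.42.0, limma-voom (limma 3.58.1), no filter, only the 9 libraries, a replicate block, 1 mean over the 6 mutant libraries, and each library left out. Leaving out L88D replicates 2 and 3 together was added after seeing the data. Some genes are not reported here.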

Additional observations from a re-analysis of the deposited data

Results flagged for a closer look

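Over the 6 mutant libraries, each named gene and each summed marker list was checked for 1 library far from the other five, by Dixon's ratio of its gap to the whole range. Of 127 items, 10 stood out, and by the construction of the 95% critical value used, chance alone gives about 1 in 20. Ccl3 was at 4.67 CPM in L88D replicate 2 against 6.47 to 7.35 CPM in the other mutant libraries. Fgf23 was at 0.817 CPM in V87R replicate 1 against 0.568 to 0.619 CPM, and Ccl5 in that library was at 9.65 CPM against 10.4 to 10.8 CPM. Il12b was at 0.757 CPM in L88D replicate 1 against 0.153 to 0.372 CPM, which rests on 12 counts, and Sparc there was at 545 CPM against 561 to 570 CPM. Hist1h1c was at 15 CPM in L88D replicate 2 against 19.6 to 20.9 CPM. V87R replicate 3 was high for Rpl22 (496 CPM, others from 449 CPM up), Rps7 (1620 CPM against 1480 to 1520 CPM) and Noc2l (304 CPM against 280 to 289 CPM). Wdr43 was at 262 CPM in L88D replicate 3 against 279 to 289 CPM. In each of the 10 genes the library that stood out was still on the same side of all 3 wild-type libraries as the other mutants.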

How the results depend on the processing

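The pooled count of 7499 genes ranged from 6647 to 7346 when 1 library was left out, and was 6877 with DESeq2, 7497 with limma-voom, 7902 in the 9 libraries alone and 7509 with 1 mean over the 6 mutant libraries. Among V87R, L88D and the wild type, deviations of same-numbered libraries correlated at -0.032 to 0.044, within the -0.052 to 0.075 of other pairs. Pairing in the vector and Malt1_PD libraries was not checked. The replicate block gave 7794 calls for the pooled comparison, 7380 for V87R, 6898 for L88D and 0 between the mutants. Against the vector it gave 3253 in place of 2733. The 0 calls between V87R and L88D became 5 with no filter on low counts, 14 in the 9 libraries alone and 0 to 2 when 1 library was left out; the 2, without L88D replicate 1, were Apoe and Csf1r. The 14 included Nos2 (768 CPM in V87R, 870 CPM in L88D) and Saa3. The cause was not tested. Without L88D replicates 2 and 3, 1731 genes were called against the vector in place of 2733. Malt1, 1 of the 122 named genes, was not part of this tally. None of the other named genes changed direction, and 9 of their values under other settings lost the call: 6 of Lck, 2 of Hist1h2bb and 1 of Hist1h3d. Nearly all of the named genes were chosen by the size or adjusted p of their change in these data. Their stability was thus largely fixed in advance and does not extend to genes not named. The share of cell cycle homology regions among genes higher by at least 2-fold was 32.82%, and 22.78% with only the bases before the start. Genes of a few counts, such as Ccn5 and Ccl11 in the wild type, have wide intervals.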

Other observations

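The Ly6 genes, which encode small surface proteins, were looked at as a family after Ly6c1 appeared among the largest rises. All 6 tested were higher in the mutants than in the wild type, with a median log2 fold change of 1.56. Ly6a, which encodes Sca-1, was at 161, 158 and 172 CPM in the wild type and 456 to 499 CPM in the mutants, above the 307 to 341 CPM of the vector (log2 1.53 ± 0.05 SE, adjusted p = 2.23e-15). Ly6e was at 483 to 544 CPM in the wild type and 818 to 855 CPM in the mutants. Ly6g rose by 1.59. Ly6i rose by 0.74 at a low level (0.947 to 1.79 CPM in the mutants), and L88D replicate 3 lay below the 1.09 CPM of wild-type replicate 2. Ly6c2, a close copy of Ly6c1, rests on 5 counts over the wild-type libraries. The 2 other families read in the same way did not move together: of 7 Apol genes 1 rose and 3 fell, and of 5 Slfn genes 1 rose and 2 fell. Mpeg1, which encodes the pore-forming protein perforin-2 and was also singled out after its values were seen, was at 9.07, 11.5 and 10.3 CPM in the wild type, 27.2, 28.1 and 27 CPM in V87R, 26.8, 30.5 and 27 CPM in L88D and 4.55 to 5.9 CPM in the vector. It is used as a macrophage marker, but unlike Lyz2 and Apoe it was as high in L88D replicate 1 and in V87R as in L88D replicates 2 and 3.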
